A study of Homo sapiens with 6 samples.

Results

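Of the 597973 exon bins counted in these cells, the 37893 that lie on chromosome 17 were examined, taken by the chromosome listed for each bin. An exon bin is a piece of exon with its own read count, cut wherever the exon ends of overlapping transcripts differ. The arms were divided at 25.1 Mb of the GRCh38 build, which placed 11193 bins on the short arm (17p) and 26700 on the long arm (17q). The bins belonged to 2754 gene identifiers, 139 of which join overlapping genes, and summed to 2979 genes, of which 1734 had enough counts to be fitted. The chromosome was chosen because its ratios between the genotypes were already known to be shifted. Every difference between genotypes given here for it is therefore a description. Single genes were fitted with a test, but the medians and shares of arms, windows and stretches were not tested.

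The cells were HEK293, an established human embryonic kidney line, compared as wild type (WT) and as a derivative labelled MUL1 KO, also written MUL1(−/−). Both were grown untreated in DMEM with fetal calf serum, glutamine and antibiotics, and total RNA was turned into mRNA sequencing libraries. There were 3 libraries per genotype. The labels do not say whether the MUL1 KO cells descend from 1 clone or whether the libraries came from separate cultures, so the spread between libraries may be technical. MUL1 encodes an E3 ubiquitin ligase of the mitochondrial outer membrane. Its level was 14.0, 13.9 and 17.4 CPM (counts per 1000000 counts of the library) in the WT libraries and 17.05, 15.2 and 17.7 CPM in the MUL1 KO libraries. The log2 fold change of MUL1 was 0.14 ± 0.10 (SE, adjusted p = 0.302, edgeR quasi-likelihood test). A small edit can leave the RNA of a gene at its former level, so the MUL1 counts neither checked nor contradicted the genotype labels, which were used as given.

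Total counts over all bins ran from 127466071 to 149317215 per library, of which 9344917 to 10710757 fell on chromosome 17. All 5 markers of HEK293 cells were counted in every library, with vimentin (VIM) between 549 and 849 CPM. PAX2 stood at 9.70, 9.01 and 7.14 CPM in WT and 2.64, 3.05 and 1.78 CPM in MUL1 KO, LHX1 was at a log2 fold change of -0.54 ± 0.15, VIM at -0.33 ± 0.08 and NEFM at 1.07 ± 0.13, all 4 with an adjusted p under 0.05, and NEFL at -0.30 ± 0.13 (adjusted p = 0.0825, edgeR). Markers of leukocytes (PTPRC), endothelium (PECAM1) and hepatocytes (ALB) were at or below 0.379 CPM, with PTPRC at 1.95 ± 0.38 and PECAM1 at 2.07 ± 0.50 on the log2 scale between genotypes. The muscle marker DES lay between 0.471 and 0.865 CPM, and COL1A2 lay between 1.14 and 4.07 CPM. COL1A1 was between 13.6 and 22.6 CPM and EPCAM, an epithelial marker, between 52.5 and 58.5 CPM. PECAM1, COL1A1 and the HEK293 marker LHX1 are themselves genes of chromosome 17. The part of the other cell types' markers in the results was not tested.

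Chromosome 17 is one of the gene-rich human chromosomes. Its short arm carries the skeletal myosin heavy chain and lipoxygenase clusters and the interval deleted in Smith-Magenis syndrome, which is flanked by repeated sequence. Its long arm carries the chemokine and Schlafen clusters, the receptor gene ERBB2, the type I keratins, BRCA1, the HOXB cluster and, at its far end, a dense group of metabolic genes. Most neighbouring genes outside such clusters have unrelated functions.

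The results turn on position along the chromosome, so 6 coding exon bins are shown in the order in which they lie, each the most counted bin of 60 to 200 bases that was wholly coding and free of other genes. The first comes from a gene inside the raised region of the short arm (ACADVL). MIEN1 lies shortly before the edge where that region ends and ORMDL3 past it, with other genes between them. DDX5 comes from a short raised block of the long arm, and ABCA8 and PYCR1 are the genes with the highest and lowest ratios beyond that block. Sequences are from GENCODE 29 transcripts on GRCh38, 5′ to 3′ on the strand of the gene, and no part of them is marked by capitals.
ACADVL, chr17:7224321-7224393, plus strand, exon 15: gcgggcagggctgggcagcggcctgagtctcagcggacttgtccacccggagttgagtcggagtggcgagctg
MIEN1, chr17:39729685-39729761, minus strand, exon 3: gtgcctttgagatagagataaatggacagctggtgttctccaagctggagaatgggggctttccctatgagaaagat
ORMDL3, chr17:39923112-39923263, minus strand, exon 3: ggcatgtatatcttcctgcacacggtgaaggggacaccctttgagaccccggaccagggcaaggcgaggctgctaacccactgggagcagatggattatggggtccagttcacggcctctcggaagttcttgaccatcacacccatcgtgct
DDX5, chr17:64500185-64500326, minus strand, exon 13: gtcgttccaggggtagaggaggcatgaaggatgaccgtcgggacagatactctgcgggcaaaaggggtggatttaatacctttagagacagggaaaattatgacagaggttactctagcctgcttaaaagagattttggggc
ABCA8, chr17:68887336-68887506, minus strand, exon 23: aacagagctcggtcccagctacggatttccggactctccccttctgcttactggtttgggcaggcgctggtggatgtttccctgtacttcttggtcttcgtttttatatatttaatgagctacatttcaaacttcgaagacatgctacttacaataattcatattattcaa
PYCR1, chr17:81935403-81935516, minus strand, exon 3: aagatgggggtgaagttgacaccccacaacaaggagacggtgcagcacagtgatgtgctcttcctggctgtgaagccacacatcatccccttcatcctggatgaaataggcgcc

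These 6 bins were picked with the ratios of their genes known. They are examples of values and do not show the course of the ratios along the chromosome. The ACADVL bin held 976, 987 and 910 reads in the WT libraries and 1506, 1493 and 1801 in the MUL1 KO libraries. The MIEN1 bin held 665, 691 and 659 reads in WT and 1093, 1105 and 1228 in MUL1 KO, while the ORMDL3 bin, shortly beyond it, held 409, 493 and 466 reads in WT and 491, 432 and 482 in MUL1 KO. The genotypes were apart at the first pair of bins and overlapped at ORMDL3. The DDX5 bin, far along the long arm, was apart again, with 3622, 3757 and 4252 reads in WT and 5540, 5649 and 6642 in MUL1 KO. The ABCA8 bin held 6, 0 and 1 reads in WT and 26, 29 and 48 in MUL1 KO. The PYCR1 bin held 781, 867 and 621 reads in WT and 2, 3 and 0 in MUL1 KO. Scaled by library size, the log2 ratios of the 6 bins were 0.82, 0.84, 0.12, 0.69, 3.92 and -8.76 in the order shown.

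The short arm as a whole was higher in the MUL1 KO libraries. Over its 503 fitted genes the median log2 fold change was 0.53, a 1.44-fold difference, with quartiles of 0.30 and 0.75, and 89.9% of the genes lay above 0. The median over the 1231 fitted genes of the long arm was 0.09, with quartiles of -0.18 and 0.42, and that over 23476 genes of the other autosomes was -0.01. By library, the median of the 17p genes, as log2 CPM minus the mean WT value, was 0.01, -0.00 and -0.01 in WT and 0.56, 0.50 and 0.50 in MUL1 KO. The long-arm medians were 0.01, -0.00 and -0.00 in WT and 0.12, 0.06 and 0.10 in MUL1 KO. On both arms the 3 MUL1 KO medians lay above the 3 WT medians. All 3 MUL1 KO libraries showed the short-arm shift to nearly the same degree. In bulk RNA, a gene's level can differ through the number of cells that express it or through the RNA per cell, which cannot be told apart here.

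Other autosomes were also displaced as wholes, in both directions, as the plot of autosome medians shows. Their medians ran from -0.33 on chromosome 20 to 0.32 on chromosome 19, with chromosome 13 at 0.22 and chromosome 10 at -0.29. None of the 21 other autosomes, each taken whole, had a median above that of 17p, and 3 had one above that of 17q. Single arms of the other autosomes were not compared. Consecutive windows of 20 fitted genes gave a closer comparison. On chromosome 17, 40 of 87 windows had a median above 0.3, against 118 of 1174 on the other autosomes. Chromosome 19 had a larger share of such windows than chromosome 17, with 56 of 94. The longest unbroken run of such windows was 28 on chromosome 17, 22 on chromosome 19 and 16 on chromosome 3. Single windows rose higher elsewhere. The highest median was 0.818 on chromosome 17, 0.823 on chromosome 19, 0.863 on chromosome 3 and 1.74 on chromosome 5.

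**Figure D1:**
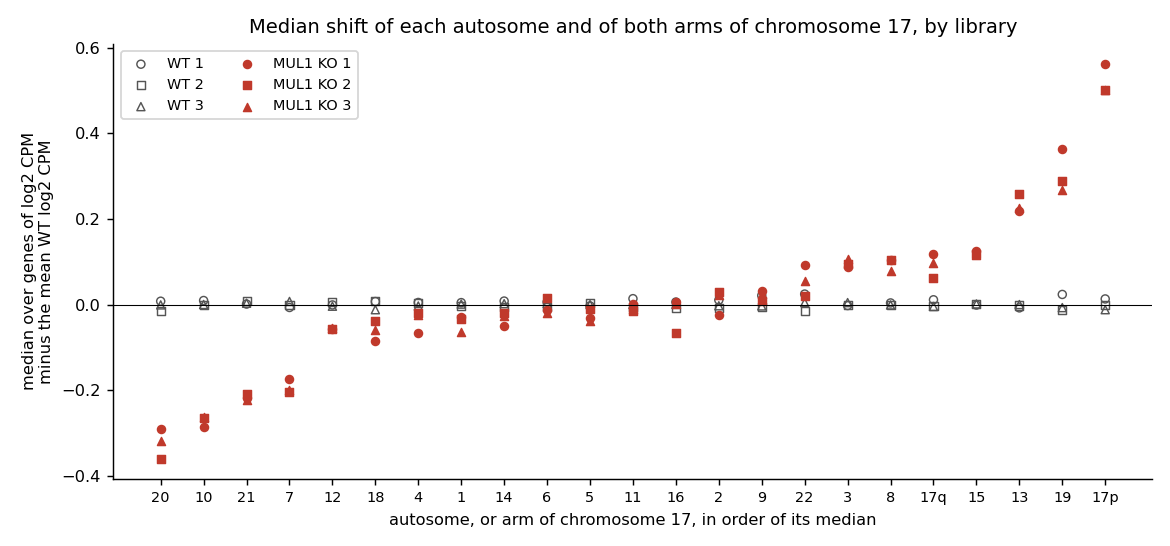
Median over genes of log2 CPM minus the mean WT log2 CPM (vertical axis) for each autosome and for each arm of chromosome 17, placed in order of the median fold change (horizontal axis), with open symbols for the 3 WT and filled symbols for the 3 MUL1 KO libraries. The MUL1 KO points of 17p, at 0.50 to 0.56, stand above those of every other autosome, and those of 17q lie between 0.06 and 0.12.

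A gene was counted as called where its adjusted p was under 0.05 and its log2 fold change beyond 1 in either direction. Among the 17p genes, 46 of 503 were called higher in MUL1 KO, beside 4.17% of all 26060 genes fitted, and 2 were called lower, beside 3.75%. On 17q, 51 of 1231 were called higher and 47 lower. At an adjusted p under 0.05 alone, 307 genes of 17p were higher, beside 19.3% of all genes, and 12 were lower, beside 18.5%. All 3 MUL1 KO values lay above all 3 WT values in 333 genes of 17p (66.2%), beside 24.9% over all genes, and below them in 17 genes, beside 24.1%. These shares are descriptions, since the chromosome was chosen on the same contrast. Of the 1245 genes of the chromosome that were not fitted, 715 had at most 3 counts in every library, 301 of them none at all.

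The shift did not follow the arms. A least-squares segmentation of the gene fold changes in order of position gave 15 segments. Neighbouring segments were then grouped into stretches by whether their median reached 0.3, as the plot of genes along the chromosome shows. A leading stretch, chr17:64099-39747291, took in the whole short arm and the first part of the long arm, from LINC02887 to GRB7. Its 794 fitted genes had a median log2 fold change of 0.53, and the 291 of them on the long arm had the same median as the short arm, at 0.54 against 0.53. A step followed, chr17:39757715-42562062 (IKZF3 to HSD17B1-AS1), with 75 genes and a median of 0.22. The middle stretch, chr17:42561467-63864379 (COASY to TCAM1P), held 450 genes with a median of -0.02. A block of 30 genes, chr17:63998351-64956546 (PRR29 to SLC16A6P1), had a median of 0.74, a 1.67-fold difference. The end stretch, chr17:64966550-83240804, held 385 genes with a median of -0.07. It was not level, and the medians of its segments ran from -0.51 to 0.16. The lowest were chr17:81900965-82098332, with -0.51 over 20 genes, and chr17:76545668-78132407, with -0.33 over 40. The highest was chr17:75897060-76553578, with 0.16 over 30.

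**Figure D2:**
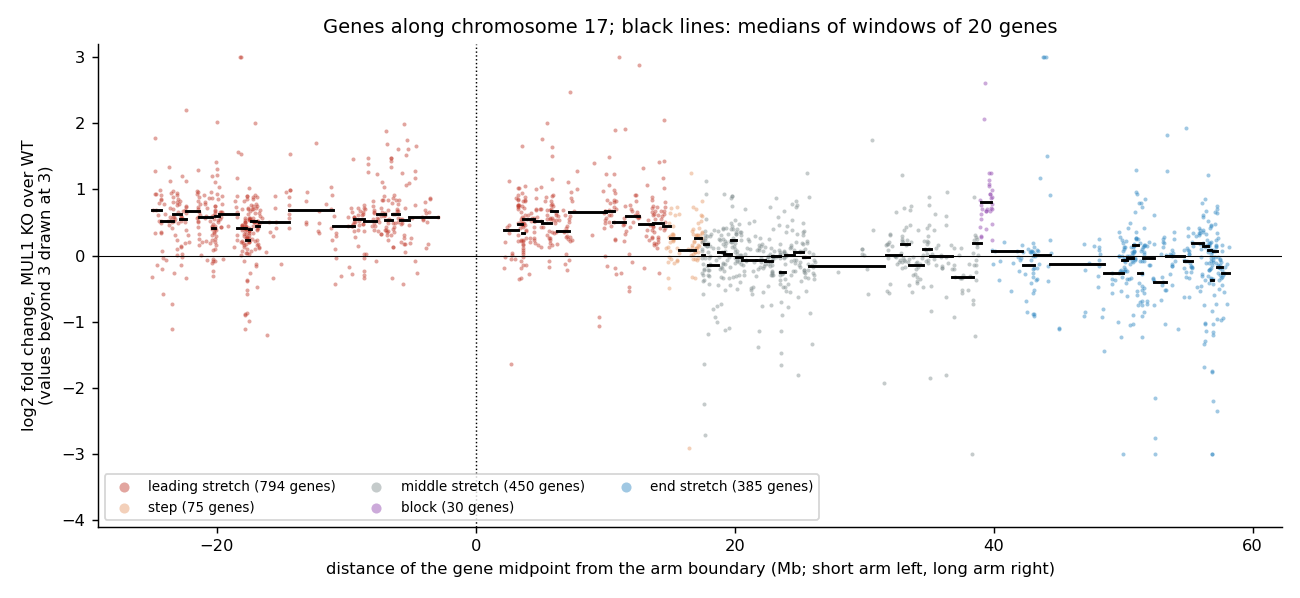
Log2 fold change of each of 1734 fitted genes (points, MUL1 KO over WT, values beyond 3 drawn at 3) against the distance of the gene's midpoint from the arm boundary in Mb, coloured by stretch, with black lines at the medians of 87 windows of 20 genes. Window lines stay above 0 from the short-arm end through the first part of the long arm, drop to near 0 in the middle stretch, and stand at 0.82 in the block.

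The split between stretches was seen in each MUL1 KO library. In the leading stretch the library medians were 0.01, 0.00 and -0.01 in WT and 0.56, 0.50 and 0.50 in MUL1 KO. In the block they were -0.09, 0.06 and 0.05 in WT and 0.75, 0.74 and 0.77 in MUL1 KO. In the middle stretch they were -0.00, -0.01 and 0.01 in WT and 0.01, -0.03 and -0.04 in MUL1 KO, so the genotypes overlapped there. Genes above 0 made up 713 of 794 in the leading stretch, 60 of 75 in the step, 208 of 450 in the middle stretch, 30 of 30 in the block and 161 of 385 in the end stretch. Calls in the leading stretch were 75 higher (9.45%, beside 4.17% of all genes) and 4 lower (0.504%, beside 3.75%). The middle and end stretches together had 14 higher (1.68%) and 44 lower (5.27%). When segments as short as 5 genes were allowed, the leading stretch still ended at 39747291 and the block kept both of its ends.

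**Figure D3:**
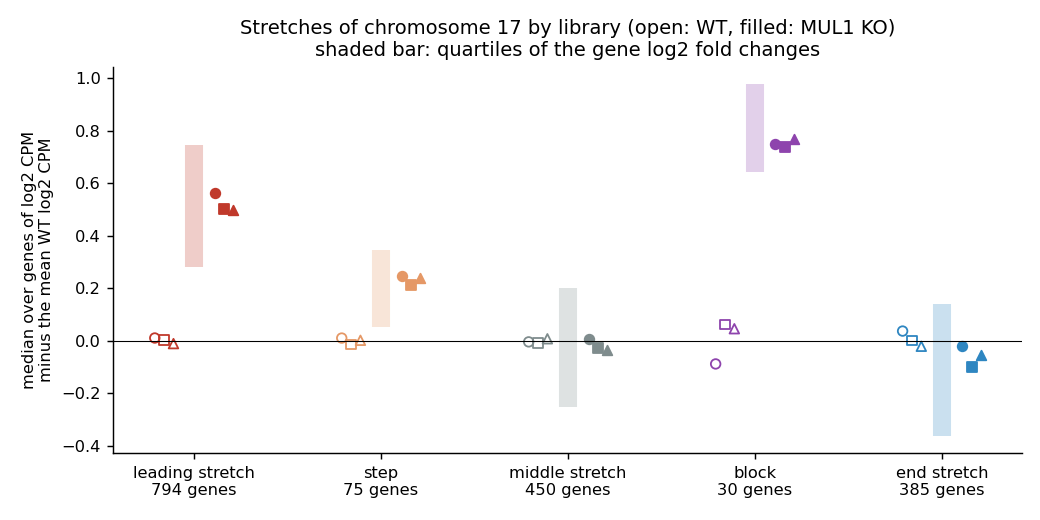
Median over the genes of each stretch of log2 CPM minus the mean WT log2 CPM (vertical axis, log2 units) in the 3 WT (open) and 3 MUL1 KO (filled) libraries, with shaded bars for the quartiles of the gene log2 fold changes. The genotypes are apart in the leading stretch, the step and the block, and overlap in the middle stretch.

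The arm boundary itself fell inside the leading stretch. The last fitted genes of the short arm, LINC02693 and UBBP4, had log2 fold changes of 0.88 ± 0.08 and 0.58 ± 0.15 (SE). The first of the long arm, WSB1, a subunit of a ubiquitin ligase, had one of -0.19 ± 0.08, and the next was at -0.03 ± 0.40. The 20 genes of the first long-arm window, chr17:27294076-28368012, had a median of 0.39 and the following window one of 0.48.

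The segmentation placed the end of the leading stretch between GRB7 and IKZF3, but the change there was graded. Named here after their values were seen, the last genes before the edge with a mean of at least 10 CPM were FBXL20 (0.42 ± 0.08), the transcription cofactor MED1 (0.68 ± 0.07), the kinase CDK12 (0.59 ± 0.10), the cholesterol-binding protein STARD3 (0.63 ± 0.08), the receptor tyrosine kinase ERBB2 (0.74 ± 0.07) and MIEN1 (0.81 ± 0.09), which shares the bins that hold 45.6% of its counts. ERBB2 stood at 66.3, 61.1 and 60.8 CPM in WT and 104, 101 and 109 CPM in MUL1 KO. Past the edge came GSDMB, a member of the gasdermin family of pore-forming proteins (-0.09 ± 0.12), ORMDL3, a regulator of sphingolipid synthesis (0.12 ± 0.07), the proteasome subunit PSMD3 (0.28 ± 0.06) and MED24 (-0.03 ± 0.07). MED24 stood at 244, 231 and 229 CPM in WT and 226, 210 and 255 CPM in MUL1 KO. ERBB2 had no overlap between genotypes, and MED24, of the same Mediator complex as MED1, overlapped. PSMD3, past the edge, had no overlap either, at 257, 245 and 260 CPM in WT and 314, 299 and 312 CPM in MUL1 KO. All MUL1 KO values lay above all WT values in 33 of the 75 genes of the step (44%), beside 24.9% over all genes. They lay below them in 4 (5.33%), beside 24.1%. Within the step the values were mixed, with the topoisomerase TOP2A at -0.11 ± 0.08 and RAPGEFL1 at 0.73 ± 0.08. The lowest and highest of its 75 genes were KRT19 at -2.91 ± 0.13 and HAP1 at 1.25 ± 0.16.

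The leading stretch was not even along its length. Of the 25 windows of the short arm all had medians above 0 and 24 had medians above 0.3, ranging from 0.24 to 0.69. The lowest of them, chr17:7352687-7561601, had quartiles of -0.37 and 0.65, and 14 of its 20 genes lay above 0. It belonged to a weaker segment, chr17:6985494-7582113, whose 64 genes had a median of 0.32. The segment before it, chr17:5032600-7012349, had a median of 0.70 over 34 genes. On the long arm, 16 of 62 windows had medians above 0.3, and the range was -0.39 to 0.82.

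The highest windows of the short arm lay at its tip and in a gene-poor part. The first window, chr17:64099-795794, had a median of 0.69, and its most counted genes were VPS53, a subunit of a vesicle tethering complex, GEMIN4, of the SMN complex, and GLOD4. VPS53 stood at 30.4, 31.0 and 30.5 CPM in WT and 54.9, 51.0 and 52.7 CPM in MUL1 KO, and GEMIN4 at 42.7, 39.95 and 41.7 against 73.2, 69.2 and 80.8 CPM. GLOD4 was 1.41-fold higher. The genotypes did not overlap in any of these genes. The window chr17:10672474-14069495 had a median of 0.69 as well, with all 20 genes above 0. It held the stress kinase gene MAP2K4, at 28.95, 26.8 and 31.8 CPM in WT and 54.3, 55.5 and 61.6 CPM in MUL1 KO. ELAC2, which trims the ends of transfer RNAs, was 1.59-fold higher and the copper chaperone SCO1 1.49-fold.

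The block held the highest window of the chromosome, chr17:64145970-64919480, with a median of 0.82 and all 20 genes above 0. DDX5, an RNA helicase and its most counted gene, stood at 599, 576 and 675 CPM in WT and 895, 947 and 1113 CPM in MUL1 KO. CEP95, a centrosomal protein gene, stood at 39.7, 39.9 and 42.8 CPM against 65.1, 65.5 and 64.5 CPM. SMURF2, a ubiquitin ligase of the TGF-β pathway, stood at 27.99, 29.5 and 30.2 CPM against 47.1, 50.3 and 45.9 CPM. These 3 neighbours had no overlap between genotypes and nearly the same log2 fold change, 0.68 ± 0.08, 0.67 ± 0.07 and 0.71 ± 0.07. TEX2 (0.71 ± 0.07) and POLG2, the accessory subunit of the mitochondrial DNA polymerase (0.41 ± 0.08), lay with them. In 27 of the 30 genes of the block all MUL1 KO values lay above all WT values, beside 24.9% over all genes.

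**Figure D4:**
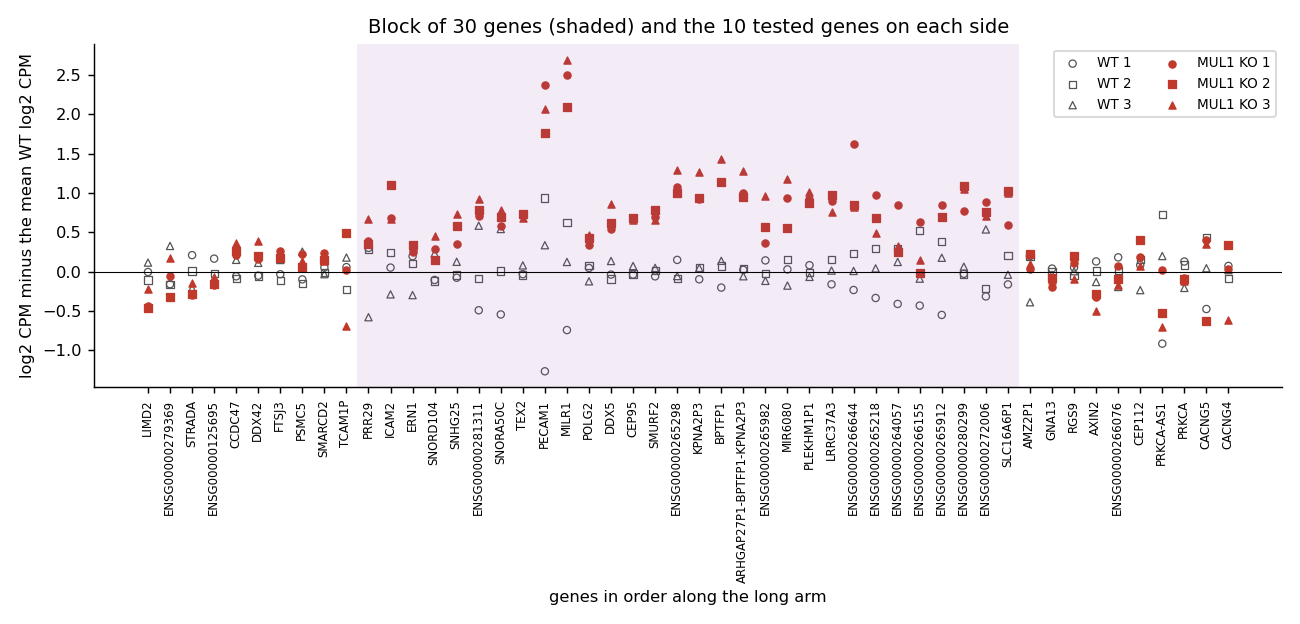
Log2 CPM minus the mean WT log2 CPM (vertical axis) of the 30 genes of the block (shaded) and of the 10 fitted genes on each side, in order along the long arm (horizontal axis), for 3 WT (open) and 3 MUL1 KO (filled) libraries. The MUL1 KO points of DDX5, CEP95 and SMURF2 stand above the WT points, and so do those of CCDC47, DDX42, FTSJ3 and SMARCD2 before the block, at smaller distances.

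The left edge of the block was gradual. Of the genes just before it, CCDC47 was at 0.28, DDX42 at 0.25, FTSJ3 at 0.20 and SMARCD2 at 0.18, each with every MUL1 KO value above every WT value, while PSMC5 (0.13 ± 0.09) and TCAM1P (0.01) overlapped. The first genes inside were PRR29 at 0.43 ± 0.25, ICAM2 at 0.84 ± 0.25, the kinase and endonuclease gene ERN1 at 0.29 ± 0.12 and SNORD104 at 0.29 ± 0.16, the last overlapping between genotypes. After the block AMZ2P1 was at 0.09 and GNA13 at -0.13. The block also held repeated sequence: LRRC37A3 (0.88 ± 0.11) and PLEKHM1P1 (0.93 ± 0.09) have closely similar copies elsewhere on the chromosome, and the joined transcript ARHGAP27P1-BPTFP1-KPNA2P3 (1.08 ± 0.10) shares 81.9% of its counts with other genes, so these values are less certain. The largest differences of the block, for PECAM1 and the mast cell gene MILR1, rested on levels of at most 0.373 CPM.

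Unshifted windows were found in the middle and end stretches. In chr17:48997412-49709014 the RNA-binding protein gene IGF2BP1 stood at 162, 163 and 147 CPM in WT and 151, 155 and 166 CPM in MUL1 KO, and PHB1, for prohibitin, was at 0.13 ± 0.06. In chr17:60179094-61863521 the deubiquitinase gene USP32 (0.03 ± 0.07) and BCAS3 (0.00 ± 0.08) were the most counted. In chr17:78378640-79802529, USP36 (0.00 ± 0.07) and LGALS3BP, a secreted glycoprotein gene (0.04 ± 0.06), were. An unshifted median did not mean that every gene was level. Of the 20 genes of this last window 2 were called higher and 1 lower, beside 4.17% and 3.75% of all genes. IGF2BP1, USP32, BCAS3, USP36 and LGALS3BP overlapped between genotypes, and PHB1 did not.

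The lowest windows differed in kind from the highest. In chr17:61865367-63521848, with a median of -0.33, the 3 most counted genes were not low: the Mediator subunit gene MED13 was at 0.12 ± 0.07, METTL2A at 0.01 ± 0.07 and the kinase gene TLK2 at 0.12 ± 0.07. In chr17:77442109-78373911, with a median of -0.39, SYNGR2 was at 0.13 ± 0.07, thymidine kinase TK1 at 0.25 ± 0.08 and BIRC5, for survivin, at 0.29 ± 0.08. In both windows the low values belonged to less counted genes. In chr17:81878425-82037732, with a median of -0.36, abundant genes were low as well: the GTPase gene RAC3 was 4.58-fold lower and DCXR, for L-xylulose reductase, 2.30-fold lower.

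The exon bins were also compared without any sum over genes. Since the gene values are sums of these same bins in the same libraries, their likeness is not separate support. Bins with a mean of at least 10 counts numbered 6407 on 17p, 17193 on 17q and 296071 on the other autosomes. Their median log2 ratios were 0.55, 0.07 and -0.02, and 92.1%, 58.2% and 48.1% of them lay above 0. All MUL1 KO values exceeded all WT values in 69.2% of the 17p bins, beside 20.8% over the whole genome, and lay below them in 1.67%, beside 20.7%. By stretch, with edges taken from the gene fold changes, the bin medians were 0.55, 0.11, -0.01, 0.67 and -0.05 in order. Neighbouring bins can share reads, so bins of a gene are not independent.

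**Figure D5:**
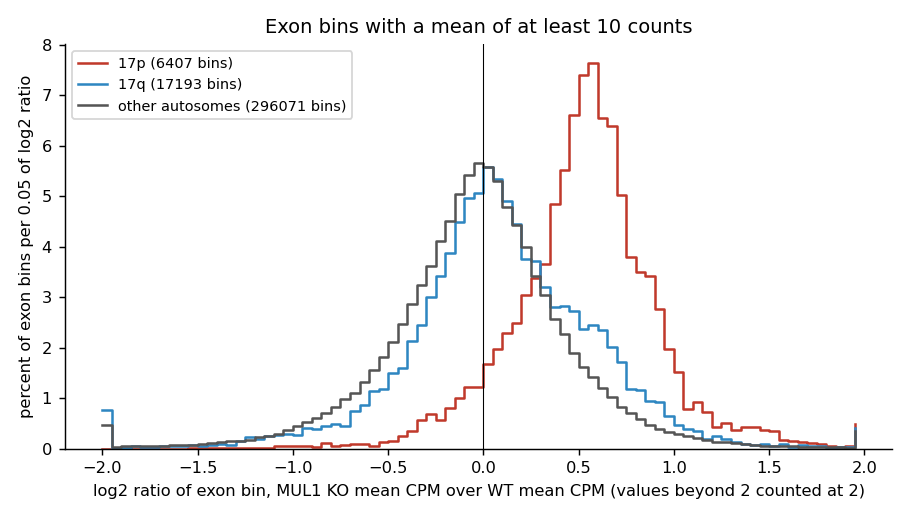
Percent of exon bins (vertical axis) in steps of 0.05 of the log2 ratio of MUL1 KO over WT mean CPM (horizontal axis, values beyond 2 counted at 2), for bins with a mean of at least 10 counts on 17p, 17q and the other autosomes. The whole 17p curve is displaced to a median of 0.55, and the 17q curve has its peak near 0 with a shoulder on the right.

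Within genes the bins lay close together. Over 859 genes with at least 5 such bins the median SD of the bin ratios of a gene was 0.22. Every bin lay above 0 in 212 of 376 genes of the leading stretch (56.4%) and in 7 of 11 of the block. The corresponding shares were 11.02% in the middle stretch and 9.28% in the end stretch. In ELAC2 all 63 bins lay above 0, in TOP3A all 59, in CEP95 all 60, and in NCOR1 97 of 98. Bins that departed from their gene were rare. Of 11336 bins with a mean of at least 100 counts that no other gene touched, 28, in 17 genes, lay more than 1 log2 unit from the median of their gene. A bin of GIT1, chr17:29589550-29589592, had 56, 27 and 66 reads in WT and 271, 132 and 150 in MUL1 KO, a log2 ratio of 1.94 beside a gene median of 0.40. A bin of RBFOX3, chr17:79089345-79090799, was at -0.39 where its gene's median was -1.91, and one of NMT1, chr17:45103877-45104322, was at -1.11 where its gene's median was 0.06.

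The height of the shift varied little with what kind of gene was counted. In the leading stretch the median was 0.56 over 442 protein-coding genes, 0.51 over 86 pseudogenes and 0.49 over 266 other non-coding genes. It was 0.50 for 56 genes over 100 CPM in WT and 0.53 for 329 genes under 1 CPM, while the width between quartiles was 0.19 in the former and 0.67 in the latter. Genes on the plus strand had a median of 0.52 and those on the minus strand 0.53. The genes called higher were mostly those of low level in WT: 60 of the 75 in the stretch were under 1 CPM there, and none was over 100 CPM. The WT level is also the base of the fold change, so level and call are not independent. In the middle and end stretches 11 of 14 genes called higher were under 1 CPM in WT, and 22 of 44 called lower. Abundant genes of the stretch thus shared the shift without reaching a log2 fold change of 1.

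As shares of all autosomal counts, 17p bins took 1.94%, 1.93% and 1.94% in the WT libraries and 2.81%, 2.71% and 2.75% in the MUL1 KO libraries, a 1.42-fold difference. The 17q bins took 5.66%, 5.63% and 5.61% in WT and 6.12%, 5.98% and 6.22% in MUL1 KO, a 1.08-fold difference. The genotypes did not overlap for either arm.

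Single genes departed far from their stretch. PYCR1, which makes the last step of proline synthesis, lies in the end stretch and stood at 105, 102 and 81.02 CPM in WT and 0.591, 0.459 and 0.403 CPM in MUL1 KO. It was 198-fold lower, with all 30 of its counted bins below 0. The antisense gene ENSG00000263585 lies wholly in its shared bins, so the reads of the pair cannot be told apart. CYB561, a membrane reductase gene, was 32.0-fold lower at 11.3 against 0.352 CPM. SLC16A5, of the monocarboxylate transporter family, was 18.6-fold lower, and the keratin KRT19 7.51-fold lower. All of these were called lower. On the short arm, RILP, an effector of lysosomal Rab7, was the lowest called gene of at least 1 CPM, at 3.12, 2.79 and 2.61 CPM in WT and 1.17, 1.22 and 1.57 CPM in MUL1 KO.

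Among the genes called higher, ABCA8, a transporter gene of the ABCA family, stood at 0.442, 0.356 and 0.340 CPM in WT and 7.85, 9.04 and 11.01 CPM in MUL1 KO, 24.5-fold higher. TMEM100 was 3.35-fold higher on the long arm. DNAH17-AS1 was 3.53-fold higher, with 96.8% of its counts in bins shared with other genes, and TBC1D3L, of a family of near-identical copies, 2.51-fold higher. On the short arm the pseudogene ALOX12P2 was 11.9-fold higher, the myosin gene MYO15A 3.69-fold, the autophagy kinase gene ULK2 3.35-fold, the small nucleolar RNA gene SNORD3B-2 3.07-fold and the pseudogene USP32P2 2.79-fold. SNORD3B-2 and USP32P2 have near-identical copies, so their values are uncertain. ABCA10 was called higher, 2.83-fold, but its most counted bin alone had a log2 fold change of -0.87, and the most counted bin of ULK2 one of 0.46.

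Some of these genes stood in short runs, picked out after their values were seen as segments of 5 to 12 genes. The runs were cut from these same fold changes, so frequent calls in them were built in. A run of the ABCA cluster, chr17:68591796-69244846, held ABCA8, ABCA9 (3.00 ± 0.40), ABCA6 (4.11 ± 0.43), ABCA10 (1.503 ± 0.17) and LINC01482. All 5 were called higher, beside 4.17% of all genes. All of them but ABCA8 and ABCA10 were under 0.5 CPM in every library. A run at chr17:81927829-82039380 held 12 genes with a median of -1.18, 8 of them called lower, beside 3.75% of all genes. Besides PYCR1 and RAC3 it held DCXR, at 681, 628 and 532 CPM in WT and 278, 257 and 266 CPM in MUL1 KO, and NOTUM, for an enzyme that inactivates Wnt proteins, 3.34-fold lower. Genes amid the run differed: LRRC45 was at -0.09 ± 0.07 and ASPSCR1 at -0.35 ± 0.10. A run at chr17:42683187-42763041 held RAMP2, the partner of the adrenomedullin receptor, 6.56-fold lower, and RAMP2-AS1, 4.71-fold lower. Neither was above 1.13 CPM in any library, and 24.6% and 29.6% of their counts lay in shared bins. EZH1, the most counted of the 5 genes of this run, was at -0.22 ± 0.08 without a call. Next to the HOXB cluster, chr17:48628675-48724758, HOXB-AS4 was 2.77-fold and LINC03057 2.19-fold lower. At chr17:81311270-81466332 the most counted of 10 genes, BAHCC1, was 2.05-fold lower, at 71.9, 72.5 and 60.5 CPM in WT and 33.0, 31.0 and 36.2 CPM in MUL1 KO.

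Gaps within the leading stretch were few. In chr17:27756766-28196381, just past the centromere, 5 genes had a median of -0.05. They held NLK, for a kinase of the Wnt pathway, at -0.05 ± 0.09, and NOS2, for the inducible nitric oxide synthase, which was 3.10-fold lower and called. Of the genes in the gene lists, PLD2 (-0.08), ALDOC (-0.19) and SLFN5 (-0.16 ± 0.15) were those of the stretch below 0. Genes outside these lists lay lower, among them RILP at -1.11 ± 0.15. At an adjusted p under 0.05 (edgeR), 16 of the 794 genes of the stretch were lower and 474 higher. The marker LHX1, a gene of this chromosome that is in none of the lists, was at -0.54 ± 0.15.

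The listed gene groups are divided here by stretch. The stretches were cut from the fold changes of these same genes, so higher medians inside the leading stretch were built in. All 18 listed genes of the Smith-Magenis interval were above 0, with a median of 0.57, and 2 of them, DRC3 and ULK2, were called higher, beside 4.17% of all genes. DRC3, at a log2 fold change of 1.04, lost its call with unshared bins alone (0.97) and without WT replicate 1 (0.92), WT replicate 2 (0.97) or MUL1 KO replicate 1 (0.99), and ULK2 in its most counted bin (0.46). LLGL1, a cell polarity gene, stood at 62.6, 59.4 and 58.7 CPM in WT and 91.2, 86.5 and 86.0 CPM in MUL1 KO. FLII, an actin regulator gene, was at 0.31 ± 0.06 and TOP3A, a topoisomerase gene, at 0.85 ± 0.07. Of the nuclear genes for mitochondrial proteins, 34 were fitted and none was called, beside 4.17% higher and 3.75% lower over all genes. The 13 in the leading stretch had a median of 0.65 and the other 21 one of 0.14. C1QBP, a matrix protein gene, was at 531, 513 and 569 CPM in WT and 742, 721 and 722 CPM in MUL1 KO, whereas NME1 (0.02 ± 0.07, with 72.6% of its counts in shared bins) and SLC25A39 (-0.12 ± 0.06) lay outside the stretch.

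Tumour suppressors and oncogenes had a median of 0.67 for the 12 in the leading stretch and 0.18 for the others, and none of 22 was called. NCOR1, for a nuclear corepressor, was at 0.68 ± 0.07 and YWHAE, for a 14-3-3 protein, at 0.46 ± 0.06. PRKAR1A, a protein kinase A subunit gene near the far end, was at 0.07 ± 0.07. Cell division genes had a median of 0.54 for 4 in the leading stretch, AURKB among them (0.52 ± 0.09), and 0.08 for the other 12, with none of 16 called. Proteasome genes had medians of 0.48 for 3 in the leading stretch and 0.19 for 4 outside it, none called. Over all genes 4.17% were called higher and 3.75% lower, so few calls would fall in groups of these sizes.

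Cytosolic ribosomal protein genes lay closer to WT than the stretch as a whole. The 4 in the leading stretch had a median of 0.16, and RPL19, at 1306, 1206 and 1144 CPM in WT and 1494, 1460 and 1411 CPM in MUL1 KO, was at 0.26 ± 0.06. RPL27, in the middle stretch, was at -0.30 ± 0.05. None of 6 was called, beside 4.17% higher and 3.75% lower over all genes.

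Enzymes of carbon and lipid metabolism lay along the whole chromosome, and 31 were fitted. Of these 1 was called higher and 2 lower, near the shares of 4.17% and 3.75% over all genes. In the leading stretch 13 had a median of 0.45, among them ACADVL, for an enzyme of fatty acid oxidation, at 273, 252 and 247 CPM in WT and 433, 413 and 520 CPM in MUL1 KO. ALDH3A1 was called higher at a mean of 0.462 against 0.161 CPM. Beyond it the median was 0.03. ACLY, which makes cytosolic acetyl-CoA, was at 0.02 ± 0.07, and FASN, for fatty acid synthase near the long-arm end, at -0.60 ± 0.08, with 1447, 1352 and 1128 CPM in WT and 880, 813 and 897 CPM in MUL1 KO. PYCR1 and DCXR were the 2 called lower. Of 36 listed genes at the long-arm end, 17q25, 6 were called lower (PYCR1, MYADML2, NOTUM, RAC3, DCXR and SECTM1) and none higher, beside 3.75% and 4.17% over all genes, with a median of -0.10. The most counted of them, ACTG1 for gamma-actin, overlapped between genotypes at -0.11 ± 0.09.

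The clusters of single families were mostly little expressed, and their few calls stand beside 4.17% higher and 3.75% lower over all genes. Of 27 type I keratin genes 4 were fitted and 1, KRT19, was called lower, while 14 had at most 3 counts in every library. KRT19 stood at 40.6, 38.0 and 31.9 CPM in WT and 4.83, 4.11 and 5.76 CPM in MUL1 KO. Of 10 HOXB genes 9 were fitted, none was called, and they ranged from -0.36 to 0.47. All 5 lipoxygenase genes of the short arm were above 0 with 1 called, ALOX15B, at a mean of 0.2996 against 0.0735 CPM. Of 4 fitted Schlafen genes SLFN12 was called higher, and SLFN11, which halts stressed replication, was 1.54-fold higher at 149 against 96.9 CPM. The chemokine gene CCL2 was called higher of 2 fitted, on 7, 13 and 19 reads in WT and 34, 44 and 21 in MUL1 KO. Its call, at a log2 fold change of 1.41, was lost without WT replicate 1 (1.12) or without MUL1 KO replicate 2 (1.15). The muscle myosin genes MYH3 and MYH8 were at 0.89 ± 0.13 and 0.96 ± 0.51 without a call, and no growth hormone gene was fitted.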

How the data were processed

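Members, stretches and gene lists were chosen with earlier results of these data known. The authors deposited read counts per exon bin of GENCODE 29 for each of 6 libraries, as whole numbers without normalization. The submitters' processing notes name Trimmomatic 0.36, STAR 2.5.2b and GRCh38. The counting program and its strand setting are not given in the sources used here, so the reads of overlapping antisense genes cannot be told apart. Joined identifiers, which held 23.0% of chromosome 17 counts, were divided by the exons of their genes on the same strand, and a bin in exons of several genes was counted in each.

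Gene sums were scaled by TMM and fitted over all 26060 genes that passed filterByExpr, from 3 WT and 3 MUL1 KO libraries, with the edgeR 4.0.16 quasi-likelihood test in R 4.3.3 (Benjamini-Hochberg adjustment). The p-values measure the spread between these libraries, which may be technical. Calls needed an adjusted p under 0.05 and a log2 fold change beyond 1. CPM values are counts per library size after TMM. With 3 counts as the lowest level read as detected, the limit was 0.0194 to 0.0224 CPM. The fit was tested on simulated data with 200 genes of 26060 changed by a log2 fold change of 2, of which 199 were recovered, with 3 false calls. Counts were drawn at the same dispersion for every gene. The simulation therefore does not cover smaller shifts or genes with a wider spread between libraries.

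Windows held 20 fitted genes in order of midpoint. Penalised least squares gave 15 segments of at least 20 genes. Neighbouring segments were grouped into stretches only by whether their median reached 0.3. The first segment below 0.3 was kept apart as the step. Exon bins with a mean of at least 10 counts were compared as mean CPM without a fit. Genes named were the 5 highest and 5 lowest called genes per arm with at least 1 CPM and no overlap, the most counted genes of the highest, lowest and unshifted windows, and the most counted and the called genes of 15 lists. A gene that this rule named is not reported here. Genes at the edges of stretches and in short runs were added after their values were seen. The sequences came from GENCODE 29 transcripts. Alternatives tried were DESeq2 1.42.0, limma-voom 3.58.1, other scalings, filters, gene counts, window sizes and a block, and leaving out each library.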

Additional observations from a re-analysis of the deposited data

How the results depend on the processing

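Main counts of called genes on chromosome 17 were 97 higher and 49 lower. They became 35 and 25 with a filter of 1 CPM in 3 samples, 45 and 27 with protein-coding genes only, and 637 and 160 with an adjusted p under 0.05 alone. Leaving out each library in turn gave 87 to 127 higher and 42 to 56 lower. With library totals alone the median log2 fold change was 0.59 on 17p and 0.16 on 17q, against 0.53 and 0.09, and the bin medians were 0.61 and 0.14. Without a filter the 17q median was 0.13. Leaving out libraries gave medians of 0.51 to 0.54 on 17p, 0.07 to 0.11 on 17q and 0.68 to 0.88 in the block. The share of fitted genes in windows with a median above 0.3 was 92.0%, 100% and 100% on 17p with windows of 10 genes, of 40 genes and with segments, and 28.4% and 29.2% on 17q with windows of 10 and 40. Over the left-out libraries these shares ran from 96.1% to 100% on 17p and from 25.6% to 28.5% on 17q. Without the 10 most counted identifiers of each arm the folds of the shares of autosomal counts were 1.52 on 17p and 1.11 on 17q. The causes of these changes were not tested beyond the fewer or more genes that a filter leaves.

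The replicate numbers of the genotypes were not shown to pair the libraries: deviations of same-numbered libraries correlated at -0.11, 0.17 and 0.10 over 16531 genes, and WT replicate 1 correlated best with another number. A fit with the number as a replicate block gave 94 calls higher and 47 lower, and medians of 0.53 and 0.09. Of 447 values computed for the 26 called genes named, 439 were still called, 7 were no longer called (DRC3, ULK2 and CCL2), and ABCA10 in its most counted bin had the other sign, at -0.87. Of genes not called, 5 gained a call in 11 values. Between quartiles, fold changes in the leading stretch spanned 0.67 log2 units for genes under 1 CPM and 0.19 for those over 100 CPM. The files hold RNA counts alone.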
